A study of Homo sapiens with 12 samples.

Results

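The nuclear genes for the subunits of the mitochondrial respiratory chain and ATP synthase were examined in SKBR-3, an established HER2-amplified breast carcinoma line that lacks oestrogen receptor. Members were the genes whose symbols name a subunit of complexes I to V (the NDUFA, NDUFB, NDUFC, NDUFS and NDUFV families, SDHA to SDHD, the UQCR genes, 10 broadly expressed COX subunits and the ATP5 genes) and that had at least 10 counts in all 12 samples. Of 78 symbols that matched, 77 qualified, out of 20531 genes listed. They comprised 37 genes of complex I, 4 of complex II, 9 of complex III, 10 of complex IV and 17 of complex V. NDUFA4L2, a paralog of NDUFA4, matched but fell below the count minimum, with as few as 5 counts in a sample and at most 28.

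All samples were SKBR-3 cells that had first received an siRNA pool for 48 h by the labels, either a non-targeting (NT) control or one against FOXA1, a forkhead pioneer factor. They were then treated for 24 h with DMSO, the vehicle, or with 300 nM lapatinib, a kinase inhibitor of HER2 and EGFR. The methods of the study give a shorter siRNA time before the drug than the labels do. The 4 groups (NT siRNA with DMSO, NT siRNA with lapatinib, FOXA1 siRNA with DMSO, and FOXA1 siRNA with lapatinib) held 3 RNAseq libraries each, and the study asked how lapatinib changes expression when FOXA1 is depleted. The groups come from a single cell line and a single siRNA pool per target, and the sources used here do not say that replicates were separate cultures, so p-values measure the spread between these samples.

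Library totals ranged from 25749578 to 32271850 expected counts. FOXA1 itself, in replicates 1 to 3 of each group, had normalized counts of 8444, 8307 and 8765 with NT siRNA and DMSO, 12669.6, 12166 and 13173 with NT siRNA and lapatinib, 1159.9, 1362 and 1564 with FOXA1 siRNA and DMSO, and 1642, 1888 and 2383 with FOXA1 siRNA and lapatinib, so every library with FOXA1 siRNA lay below every library with NT siRNA. ERBB2, KRT8, KRT18 and KRT19 were abundant and PTPRC, a leukocyte marker, was near 0 TPM (a level corrected for transcript length and library size) in each sample. PECAM1 of endothelial cells and COL3A1 of fibroblasts were also near 0, while COL1A1 had group means between 3.21 and 5.2 TPM. CD68, used as a macrophage marker, averaged 18.1 TPM in control cells, 32.5 with lapatinib, 24.3 with FOXA1 siRNA and 37.1 with both, and its part in the results was not tested.

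Oxidative phosphorylation passes electrons from NADH through complex I, or from succinate through complex II, to ubiquinone, complex III and cytochrome c, and then to oxygen at complex IV. Complexes I, III and IV pump protons out of the mitochondrial matrix, and complex V, the ATP synthase, uses the returning protons to make ATP. Complex II is also an enzyme of the TCA cycle and is built only from nuclear-encoded proteins, whereas the other complexes combine nuclear subunits with a few made inside the organelle. The 13 subunits encoded by mitochondrial DNA were not analysed here.

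As levels per transcript length, the members spanned from 1.91 TPM for ATP5L2 to 3631 TPM for NDUFB9, with a median of 242.8 TPM over the 12 samples. In complex I the extremes were NDUFB9 and NDUFV3 (49.9 TPM), in complex II SDHA (286.1 TPM) and SDHC (105.4 TPM), in complex III UQCRH (634.3 TPM) and UQCRB (13.5 TPM), in complex IV COX7B (1245 TPM) and COX5A (398.8 TPM), and in complex V ATP5B (1600 TPM) and ATP5L2. The sum over the 77 genes was 30500 ± 786 TPM (SD, n = 3) in control cells, 24594 ± 1047 with lapatinib, 31181 ± 883 with FOXA1 siRNA and 25965 ± 774 with both. NDUFB9 alone made up much of the complex I sum. Without it the 4 sums were 26545, 21333, 27227 and 22610 TPM. Some symbols need care: ATP5EP2 is annotated as a pseudogene of ATP5E, UQCRHL is a processed copy of UQCRH, and ATP5L2 is a rarely expressed relative of ATP5L. Reads can be split between such copies, and SDHA has copies of its own, SDHAP1, SDHAP2 and SDHAP3.

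Lapatinib lowered most subunit mRNAs by a moderate amount in each siRNA background. The summed TPM with lapatinib fell by 19.4% from its control in cells with NT siRNA and fell by 16.7% in cells with FOXA1 siRNA. Complex V had the largest fall in its sum (-24.9% and -22.1%), and complexes III (-20.7% and -17.9%), I (-19.1% and -16.1%) and IV (-13.9% and -13.0%) followed. The complex II sum fell by 9.1% with NT siRNA and rose by 2.4% with FOXA1 siRNA on the scale of group means. These are shares of the RNA in a bulk library, in which a lower level in all cells and a much lower level in some cells cannot be told apart. TPM totals over the listed genes were also lower in each lapatinib sample than in each DMSO sample, and the sums were not corrected for this.

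**Figure D1:**
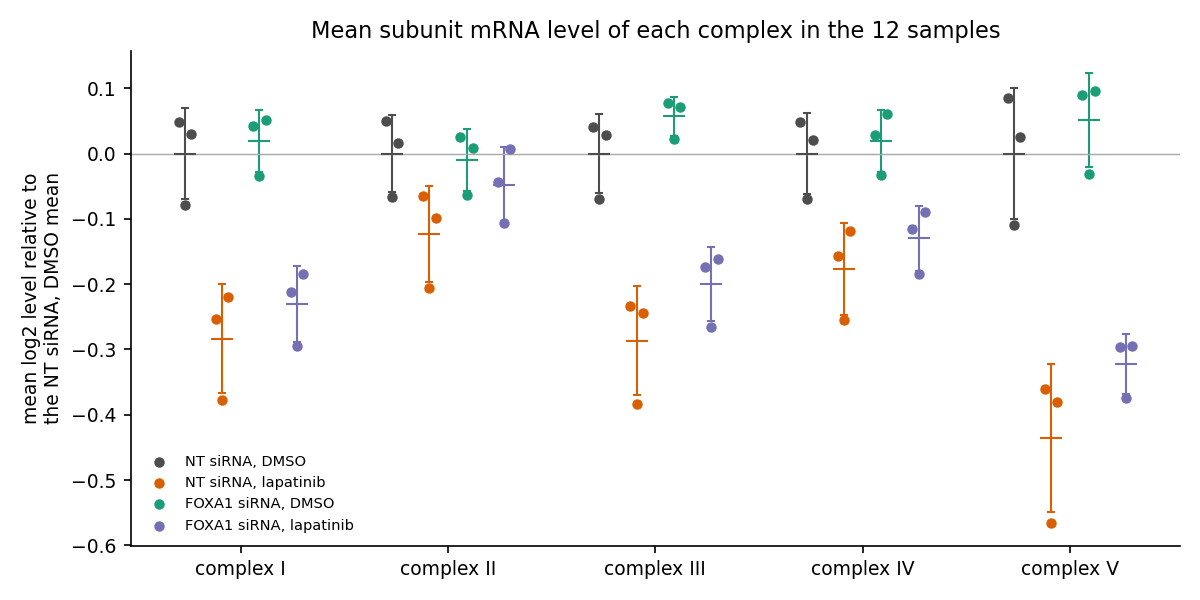
Mean over the subunit genes of each complex of log2(normalized count + 1), relative to the mean of the NT siRNA, DMSO samples (y axis), for complexes I to V (x axis). Points are the 12 samples, and horizontal marks with bars are the mean and SD of 3 replicates. Lapatinib samples lie below the DMSO samples of the same siRNA for complexes I, III, IV and V. They lie furthest below for complex V, where the means are -0.44 with NT siRNA and -0.32 with FOXA1 siRNA. For complex II the lapatinib and DMSO ranges overlap with FOXA1 siRNA. With NT siRNA they just meet, at -0.065 for the highest lapatinib sample and -0.066 for the lowest DMSO sample.

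On the log2 scale the order was the same with NT siRNA, averaging each complex's genes with equal weight and setting the control mean at 0. With NT siRNA and lapatinib, complex V stood at -0.44 ± 0.11 (SD, n = 3), complex III at -0.29 ± 0.08, complex I at -0.28 ± 0.08, complex IV at -0.18 ± 0.07 and complex II at -0.12 ± 0.07. With FOXA1 siRNA and lapatinib the values were -0.32 ± 0.05, -0.20 ± 0.06, -0.23 ± 0.06, -0.13 ± 0.05 and -0.05 ± 0.06 in that order of complexes. FOXA1 siRNA with DMSO gave 0.05 ± 0.07, 0.06 ± 0.03, 0.02 ± 0.05, 0.02 ± 0.05 and -0.01 ± 0.05, all within the spread of the control samples or close to it. Replicate 2 was the lowest of its group in each complex, in all 4 groups.

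Gene by gene, edgeR's quasi-likelihood test called a difference at a Benjamini-Hochberg adjusted p under 0.05 over all genes tested, with no minimum fold. In the comparison of lapatinib with NT siRNA, 49 of the 77 members fell and 3 rose, while 29.2% of the 13713 genes tested fell and 30.5% rose. The median log2 fold change of the members was -0.25, against 0.03 over all genes tested. With FOXA1 siRNA, lapatinib lowered 54 members and raised 3, while 29.1% of 13745 genes fell and 29.0% rose, and the medians were -0.24 and 0.01. With NT siRNA 56 members had every lapatinib sample below every DMSO sample and 4 had it above, while 33.5% and 32.8% of all genes tested were separated in those directions. With FOXA1 siRNA the counts were 61 and 4, against 33.1% and 32.2% of all genes. Changes were moderate: past a log2 fold change of 1 only ATP5G1 remained, with NT siRNA, and no member with FOXA1 siRNA. Without replicate 2 of NT siRNA, lapatinib, 6 members rather than 3 rose with NT siRNA. With the replicate number as a block, lapatinib lowered 55 members and raised 4 with NT siRNA. With FOXA1 siRNA the block gave 62 lower and 3 higher, while 34.1% of all genes were lower. The other shares over all genes with the block were not computed for the lapatinib comparisons.

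Within complex III 8 of 9 members fell in each background, and the exception both times was UQCRB. Complex V had 13 of 17 members lower with NT siRNA and 15 with FOXA1 siRNA, complex I had 21 and 25 of 37, and complex IV had 6 and 4 of 10. Under the replicate block, which called 34.1% of all genes lower with lapatinib and FOXA1 siRNA, the complex IV count there was 7 rather than 4. Complex II was split, with SDHB lower, SDHA higher and the other two close to their controls or changed in a single background. The median log2 fold change with NT siRNA ran from -0.43 in complex V and -0.29 in complex III through -0.24 in complex I and -0.17 in complex IV to 0.03 in complex II. In cells with FOXA1 siRNA the medians were -0.33, -0.26, -0.24, -0.10 and -0.05. Within complex I alone the values spread from -0.99 to 0.47.

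**Figure D2:**
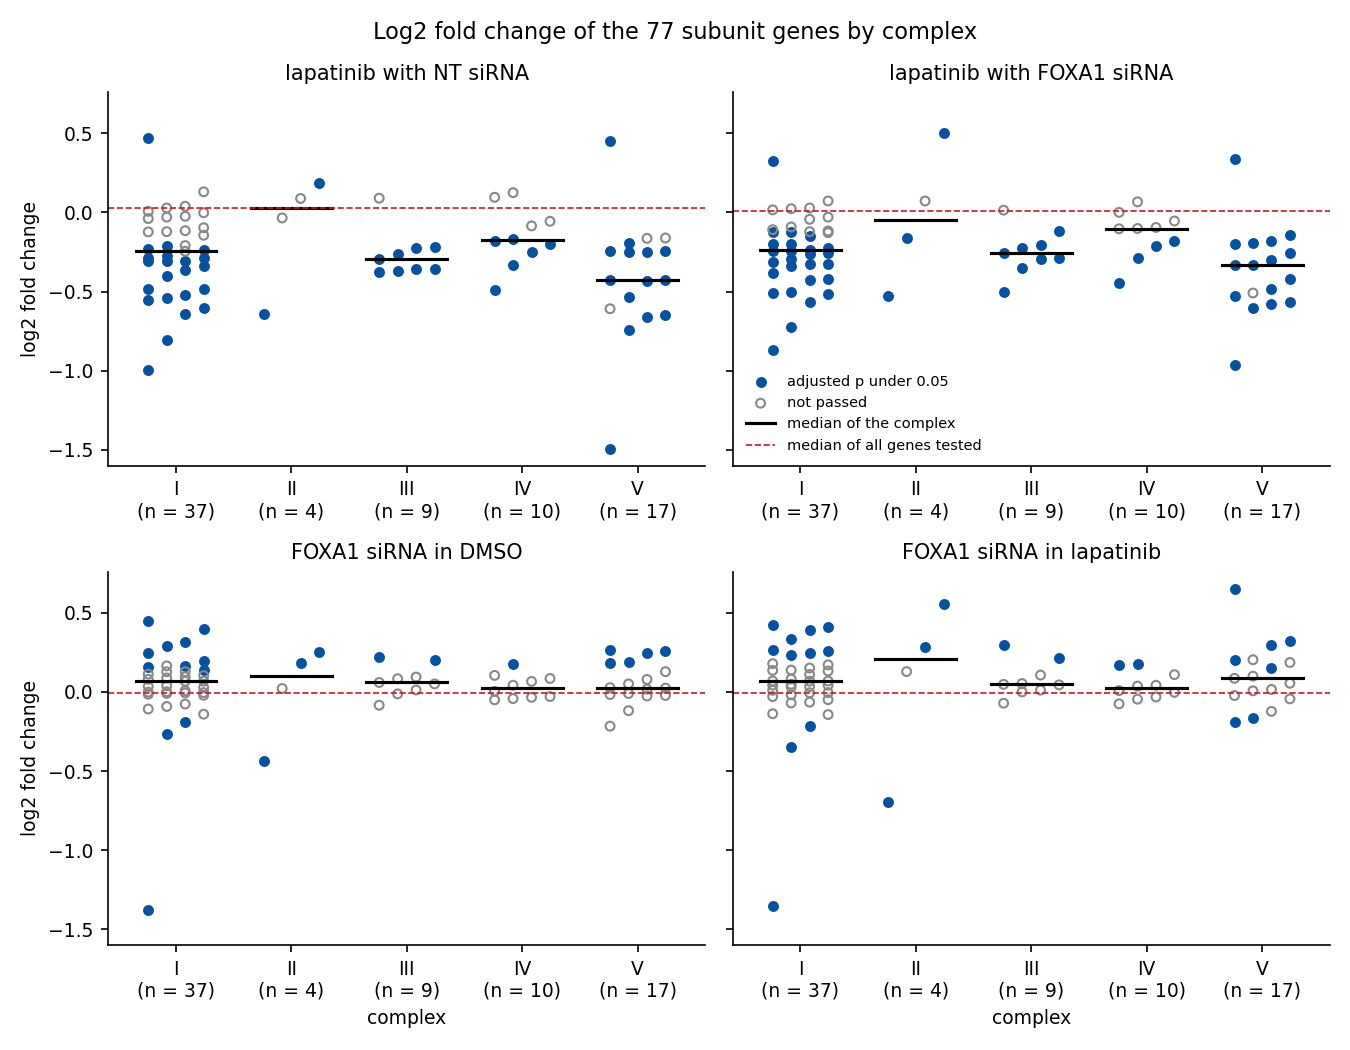
Log2 fold change (y axis) of each subunit gene, by complex (x axis, with the number of genes), in the 4 comparisons of 2 groups. Filled points passed an adjusted p of 0.05, open points did not, black bars are the median of a complex and the red dashed line is the median of all genes tested. The upper panels show most genes below the dashed line with lapatinib, and the lower panels show values near 0 with FOXA1 siRNA apart from a few genes, NDUFC1 lowest at -1.38 and -1.35.

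Promoter windows of 5 members that the results below turn on are printed to show what sequence lies upstream of the genes that moved most or in opposite directions. They come from the RefSeq promoter table of GRCh38.p14 and cover the 250 bases before an annotated start, 5′ to 3′ on the gene's strand. Capitals mark letters matching a searched motif on either strand: GCGCANGCG for NRF1, CCGGAAG for ETS/GABP, AANATGGCG for YY1, and GTAAACA or GTCAACA for forkhead factors. ATP5G1 (ATP5MC1 in RefSeq) had the largest fall with lapatinib and its paralog ATP5G2 (ATP5MC2), shown at 1 of its 3 annotated windows, rose. NDUFS8 had the next largest fall, SDHA rose and its response differed with the siRNA, and NDUFC1 had the largest fall with FOXA1 siRNA and is shown at 2 of its 4 annotated windows.
ATP5G1 (chr17:48892537-48892786, plus strand): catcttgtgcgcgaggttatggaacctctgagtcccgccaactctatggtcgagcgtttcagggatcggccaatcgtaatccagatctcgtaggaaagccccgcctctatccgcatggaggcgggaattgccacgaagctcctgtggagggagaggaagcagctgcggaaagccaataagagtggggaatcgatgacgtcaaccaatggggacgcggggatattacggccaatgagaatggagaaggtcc
ATP5G2 (chr12:53676084-53676333, minus strand): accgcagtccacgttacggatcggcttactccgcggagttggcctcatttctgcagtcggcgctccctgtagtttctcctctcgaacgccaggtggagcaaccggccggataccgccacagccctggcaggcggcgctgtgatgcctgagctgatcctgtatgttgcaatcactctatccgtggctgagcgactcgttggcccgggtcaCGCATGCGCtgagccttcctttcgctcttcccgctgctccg
NDUFS8 (chr11:68030431-68030680, plus strand): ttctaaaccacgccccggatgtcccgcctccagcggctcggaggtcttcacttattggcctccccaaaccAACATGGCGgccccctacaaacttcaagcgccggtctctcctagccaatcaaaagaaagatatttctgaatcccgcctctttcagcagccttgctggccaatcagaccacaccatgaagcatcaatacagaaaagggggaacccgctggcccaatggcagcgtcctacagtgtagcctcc
SDHA (chr5:218070-218319, plus strand): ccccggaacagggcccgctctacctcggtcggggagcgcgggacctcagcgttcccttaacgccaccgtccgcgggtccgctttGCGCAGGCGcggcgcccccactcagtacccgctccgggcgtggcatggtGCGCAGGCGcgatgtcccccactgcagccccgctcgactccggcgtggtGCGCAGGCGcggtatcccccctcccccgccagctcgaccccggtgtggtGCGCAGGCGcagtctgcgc
NDUFC1, upstream start (chr4:139302552-139302801, minus strand): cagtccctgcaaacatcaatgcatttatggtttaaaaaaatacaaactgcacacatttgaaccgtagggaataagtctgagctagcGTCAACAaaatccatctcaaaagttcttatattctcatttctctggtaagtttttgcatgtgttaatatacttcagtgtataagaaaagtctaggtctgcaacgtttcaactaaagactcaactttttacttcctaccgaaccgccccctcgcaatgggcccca
NDUFC1, downstream start (chr4:139301235-139301484, minus strand): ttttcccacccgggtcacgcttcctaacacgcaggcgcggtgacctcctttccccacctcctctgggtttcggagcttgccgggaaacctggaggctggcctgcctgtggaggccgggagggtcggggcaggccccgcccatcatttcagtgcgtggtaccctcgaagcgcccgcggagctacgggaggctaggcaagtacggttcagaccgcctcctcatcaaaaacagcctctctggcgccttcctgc

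The window of ATP5G1 held none of these letters, the printed window of ATP5G2 held 1 NRF1 match and that of NDUFS8 held 1 YY1 match. In the SDHA window 4 NRF1 matches began 49 bases apart from each other. NDUFC1's upstream window held GTCAACA and its downstream window held no match. Over the windows of 300 bases, which run to 50 bases past the start, 62 of the 77 members matched the table by gene identifier, with 74 windows. Of the genes described below, ATP5B, ATP5D, ATP5G3, ATP5L2, NDUFB5, NDUFB9, NDUFC2, SDHC, UQCRB and UQCRHL had no entry. NRF1 letters stood in 28.4% of the members' windows and 7.52% of all 35116 windows, ETS/GABP letters in 28.4% and 10.3%, YY1 letters in 25.7% and 3.19%, and forkhead letters in 2.70% and 5.62%. By gene, NRF1 letters were found in 21 of the 62 members, ETS/GABP letters in 20, YY1 letters in 17 and forkhead letters in 1, which was NDUFC1. No matches of different motifs overlapped. A match describes letters and is not evidence of binding.

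The c subunit of ATP synthase, the membrane ring that turns as protons pass, is encoded by 3 genes, ATP5G1, ATP5G2 and ATP5G3, whose mature proteins are the same. Their mRNAs moved apart with lapatinib. Below, log2 fold changes given as a pair without a label are for NT siRNA first and FOXA1 siRNA second. ATP5G1 (chromosome 17, 48892787 to 48895871, GRCh38.p14) had normalized counts of 1434, 1143 and 1382 with NT siRNA and DMSO, 523, 373 and 491 with NT siRNA and lapatinib, 1482, 1370.2 and 1433 with FOXA1 siRNA and DMSO, and 779.9, 683 and 727 with FOXA1 siRNA and lapatinib. The lapatinib samples lay far below the DMSO samples of the same siRNA, and those with FOXA1 siRNA lay above those with NT siRNA. Its log2 fold change with lapatinib was -1.49 ± 0.14 (SE, adjusted p = 3.92e-05) with NT siRNA and -0.96 ± 0.07 (SE, adjusted p = 1.31e-05) with FOXA1 siRNA.

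ATP5G2 (chromosome 12, 53665170 to 53681423) had normalized counts of 1821, 1556 and 1671 with NT siRNA and DMSO, 2192, 2272 and 2332 with NT siRNA and lapatinib, 2021, 1864 and 2135 with FOXA1 siRNA and DMSO, and 2519.5, 2482 and 2569.6 with FOXA1 siRNA and lapatinib. Each lapatinib sample was above each DMSO sample of its siRNA, and the gene rose by 0.45 ± 0.07 (SE, adjusted p = 0.000465) on the log2 scale with NT siRNA and by 0.34 ± 0.06 (SE, adjusted p = 0.00139) with FOXA1 siRNA. ATP5G3 (chromosome 2, 175176258 to 175181710) fell like ATP5G1 and had normalized counts of 7192, 6542 and 7157 with NT siRNA and DMSO, 4387, 3738 and 4147 with NT siRNA and lapatinib, 8020.1, 7448 and 8083 with FOXA1 siRNA and DMSO, and 5388, 4784 and 5228 with FOXA1 siRNA and lapatinib. Its lapatinib and DMSO samples did not overlap. Its log2 fold changes were -0.75 ± 0.07 (SE, adjusted p = 4.41e-05) and -0.60 ± 0.06 (SE, adjusted p = 5.37e-05).

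Summed over the 3 genes, the c-subunit mRNA was 564.3 ± 29.7 TPM (SD, n = 3) in control cells, 387.8 ± 15.4 with lapatinib, 636.4 ± 26.3 with FOXA1 siRNA and 476.6 ± 17.1 with both. ATP5G1 supplied 28.5% ± 1.31 of that sum in control cells and 14.4% ± 1.87 with lapatinib, and 27.7% ± 0.61 and 18.6% ± 0.64 in the groups with FOXA1 siRNA. ATP5G2 supplied 22.6% ± 0.68 and 43.7% ± 2.65 with NT siRNA, and 24.0% ± 0.67 and 39.6% ± 1.10 with FOXA1 siRNA. The most abundant c-subunit mRNA was ATP5G3 in each DMSO sample, while ATP5G2 was the highest of the trio in 2 of the 3 samples with NT siRNA and lapatinib.

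**Figure D3:**
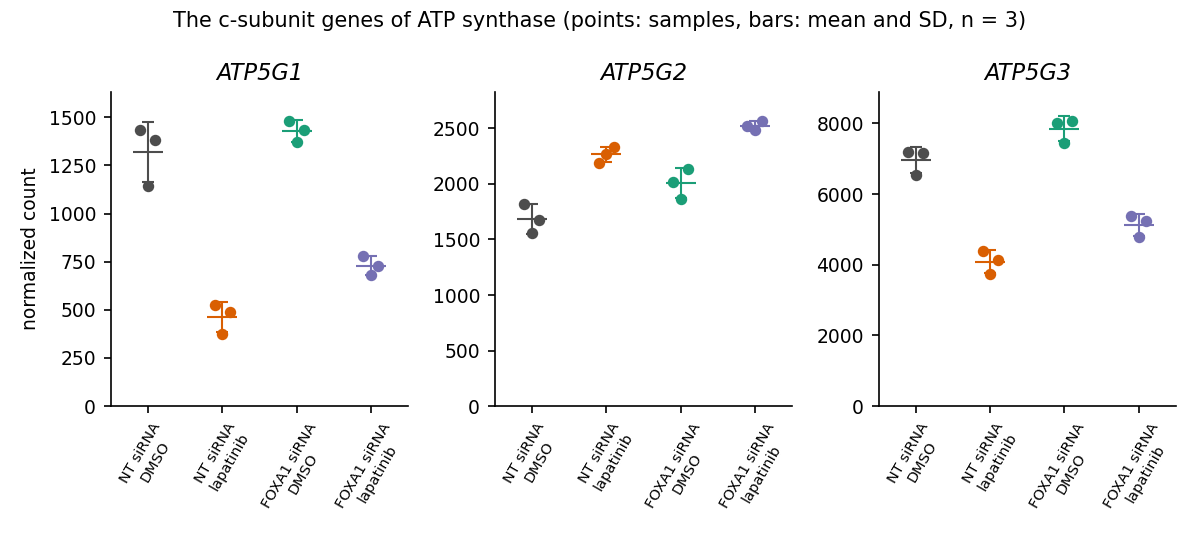
Normalized counts (y axis, from 0) of ATP5G1, ATP5G2 and ATP5G3 in the 4 groups (x axis). Points are samples and marks with bars are the mean and SD of 3 replicates. ATP5G1 drops from 1143 to 1434 in control samples to 373 to 523 with NT siRNA and lapatinib, ATP5G3 drops less, and ATP5G2 rises.

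Elsewhere in complex V the catalytic head followed the general fall. ATP5B, the catalytic beta subunit, had normalized counts of 53002, 46645 and 51388 with NT siRNA and DMSO, 39219.9, 32812 and 38524 with NT siRNA and lapatinib, 54669.8, 49668 and 53705 with FOXA1 siRNA and DMSO, and 47949.6, 41864 and 46952 with FOXA1 siRNA and lapatinib. It changed by -0.43 ± 0.08 (SE, adjusted p = 0.00159) and -0.20 ± 0.06 (SE, adjusted p = 0.0199). The lapatinib ranges lay below the DMSO ranges in both backgrounds. The call for ATP5B with FOXA1 siRNA was lost without replicate 1 or 3 of FOXA1 siRNA, DMSO (adjusted p between 0.0644 and 0.0722). ATP5A1, the alpha subunit, changed by -0.25 ± 0.07 (SE, adjusted p = 0.0191) and -0.30 ± 0.05 (SE, adjusted p = 0.00141). The call for ATP5A1 with NT siRNA was lost without replicate 1 of NT siRNA, DMSO (adjusted p = 0.0588). ATP5D, the delta subunit of the central stalk, fell by 0.66 ± 0.07 (SE, adjusted p = 6.7e-05) and 0.58 ± 0.05 (SE, adjusted p = 2.99e-05), a gene named here after its value was seen.

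In complex I the largest falls were in NDUFS8 and NDUFS6. NDUFS8, a core subunit that carries iron-sulfur clusters, had normalized counts of 1955, 1849 and 1957 with NT siRNA and DMSO, 966, 862 and 1020.5 with NT siRNA and lapatinib, 2060.0, 2121 and 2054 with FOXA1 siRNA and DMSO, and 1174, 1053 and 1175 with FOXA1 siRNA and lapatinib. Its lapatinib samples were all far below its DMSO samples, with log2 fold changes of -0.99 ± 0.07 (SE, adjusted p = 1.45e-05) and -0.87 ± 0.06 (SE, adjusted p = 1.11e-05). NDUFS6, an accessory subunit needed for late assembly, had normalized counts of 4272, 3609 and 3864 with NT siRNA and DMSO, 2263, 2027 and 2315 with NT siRNA and lapatinib, 3723, 3489 and 3585 with FOXA1 siRNA and DMSO, and 2266, 1991 and 2250.3 with FOXA1 siRNA and lapatinib. It fell by 0.81 ± 0.08 (SE, adjusted p = 4.89e-05) and 0.72 ± 0.06 (SE, adjusted p = 3.04e-05). The lapatinib and DMSO ranges of both genes were well apart.

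The catalytic entry of complex I moved less. NDUFV1, which binds NADH and flavin, fell by 0.29 ± 0.04 (SE, adjusted p = 0.000585) on the log2 scale with NT siRNA, and with FOXA1 siRNA its value was -0.04 ± 0.04 (SE, adjusted p = 0.316). NDUFV2, its partner, fell by 0.30 ± 0.06 (SE, adjusted p = 0.00297) and 0.38 ± 0.06 (SE, adjusted p = 0.000624). NDUFS1, the largest subunit of that arm, gave -0.12 ± 0.06 (SE, adjusted p = 0.141) and -0.13 ± 0.04 (SE, adjusted p = 0.0367). The call for NDUFS1 with FOXA1 siRNA was lost without replicate 1 or 3 of FOXA1 siRNA, DMSO, or replicate 2 or 3 of FOXA1 siRNA, lapatinib (adjusted p between 0.0936 and 0.118). NDUFB9, the most abundant member, fell by 0.24 ± 0.05 (SE, adjusted p = 0.00361) and 0.20 ± 0.04 (SE, adjusted p = 0.00239).

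NDUFB5, a membrane-arm accessory subunit, went the other way, with normalized counts of 3659.9, 3549 and 3448 with NT siRNA and DMSO, 5056, 4484 and 5017 with NT siRNA and lapatinib, 4329, 4083 and 4489.7 with FOXA1 siRNA and DMSO, and 5494, 5166 and 5426 with FOXA1 siRNA and lapatinib. All lapatinib samples were above the DMSO samples of their siRNA, and the gene rose by 0.47 ± 0.06 (SE, adjusted p = 0.000284) and 0.33 ± 0.05 (SE, adjusted p = 0.000711). NDUFA5 and NDUFC2 did not pass with lapatinib in either background, with log2 fold changes of -0.0027 and 0.03 for NDUFA5 and 0.04 and 0.07 for NDUFC2 (adjusted p from 0.257 to 0.967).

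The subunits of complex II differed in direction. SDHB, the iron-sulfur subunit, had normalized counts of 4290.2, 3947 and 4194 with NT siRNA and DMSO, 2712, 2603 and 2544 with NT siRNA and lapatinib, 4259, 4153 and 4094 with FOXA1 siRNA and DMSO, and 2800.5, 2988 and 2846 with FOXA1 siRNA and lapatinib. It fell by 0.64 ± 0.05 (SE, adjusted p = 2.31e-05) with NT siRNA and 0.53 ± 0.04 (SE, adjusted p = 3.15e-05) with FOXA1 siRNA, and the lapatinib and DMSO ranges were far apart. SDHA, the flavoprotein that oxidises succinate (chromosome 5, 218320 to 268746), had normalized counts of 8914, 8406 and 8826 with NT siRNA and DMSO, 9834, 9354 and 10128 with NT siRNA and lapatinib, 10626, 9960.1 and 10216 with FOXA1 siRNA and DMSO, and 14658, 13139 and 15463 with FOXA1 siRNA and lapatinib. Its values were highest in the 3 samples with both FOXA1 siRNA and lapatinib, without overlap with any other group. It rose by 0.19 ± 0.05 (SE, adjusted p = 0.0106) with lapatinib and NT siRNA and by 0.50 ± 0.06 (SE, adjusted p = 0.000219) with lapatinib and FOXA1 siRNA.

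The SDHA copies were far less abundant. SDHAP1 had normalized counts of 346, 279 and 308 with NT siRNA and DMSO, 322, 404 and 314 with NT siRNA and lapatinib, 259.7, 353 and 312 with FOXA1 siRNA and DMSO, and 829.5, 349.8 and 784 with FOXA1 siRNA and lapatinib, so the group with both treatments was spread widely. Adding SDHAP1, SDHAP2 and SDHAP3 to SDHA, a check added after seeing the data, moved the difference of mean log2 levels with lapatinib from 0.17 to 0.16 in the NT siRNA background and from 0.487 to 0.488 in the other. SDHC and SDHD, the membrane anchors, had smaller log2 fold changes with lapatinib: SDHC gave 0.09 ± 0.07 (SE, adjusted p = 0.32) and -0.16 ± 0.06 (SE, adjusted p = 0.0349), and SDHD gave -0.04 ± 0.07 (SE, adjusted p = 0.675) and 0.07 ± 0.06 (SE, adjusted p = 0.342). The call for SDHC with FOXA1 siRNA was lost without replicate 1 or 3 of FOXA1 siRNA, DMSO, or replicate 1 or 2 of FOXA1 siRNA, lapatinib (adjusted p between 0.0692 and 0.12).

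In complex III, log2 fold changes lay between -0.38 and 0.09 in NT siRNA cells and between -0.50 and 0.01 in FOXA1 siRNA cells, UQCRB being the highest and not passing. UQCRFS1, the Rieske iron-sulfur protein that takes electrons from ubiquinol, had normalized counts of 5925, 5610.1 and 5942 with NT siRNA and DMSO, 4509.6, 4261 and 4530.4 with NT siRNA and lapatinib, 6670.4, 6582 and 6647 with FOXA1 siRNA and DMSO, and 5388, 4888 and 5251 with FOXA1 siRNA and lapatinib. The lapatinib ranges lay below the DMSO ranges of the same siRNA. It fell by 0.37 ± 0.05 (SE, adjusted p = 0.000289) and 0.35 ± 0.05 (SE, adjusted p = 0.000304). UQCRC1, a core subunit, changed by -0.26 ± 0.06 (SE, adjusted p = 0.00468) and -0.12 ± 0.04 (SE, adjusted p = 0.0296). The call for UQCRC1 with FOXA1 siRNA was lost without replicate 1 or 3 of FOXA1 siRNA, DMSO, or replicate 1, 2 or 3 of FOXA1 siRNA, lapatinib (adjusted p between 0.0552 and 0.103). UQCRH and its copy UQCRHL, whose reads may be shared, changed alike, by -0.23 and -0.29 with NT siRNA and -0.21 and -0.26 with FOXA1 siRNA (adjusted p from 0.00624 to 0.0281). The call for UQCRH with NT siRNA was lost without replicate 1 or 3 of NT siRNA, DMSO, or replicate 1 or 2 of NT siRNA, lapatinib (adjusted p between 0.0528 and 0.101).

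In complex IV the most abundant mRNA, COX7B, moved most. It had normalized counts of 9039, 8675 and 8981 with NT siRNA and DMSO, 6445, 5994 and 6244 with NT siRNA and lapatinib, 9297, 9067 and 9333 with FOXA1 siRNA and DMSO, and 6901, 6774 and 6585 with FOXA1 siRNA and lapatinib. No lapatinib sample reached the level of a DMSO sample. It fell by 0.49 ± 0.05 (SE, adjusted p = 5.27e-05) and 0.44 ± 0.04 (SE, adjusted p = 3.6e-05). COX4I1, the ubiquitous isoform of a regulatory subunit, had normalized counts of 7969.8, 7308 and 7826 with NT siRNA and DMSO, 7169, 6841 and 7436 with NT siRNA and lapatinib, 7449.6, 7028 and 7639.5 with FOXA1 siRNA and DMSO, and 6631, 6693 and 7142 with FOXA1 siRNA and lapatinib. Its lapatinib and DMSO ranges overlapped in both backgrounds, with log2 fold changes of -0.09 ± 0.05 (SE, adjusted p = 0.193) and -0.10 ± 0.05 (SE, adjusted p = 0.103), the second of which passed with the replicate number as a block (adjusted p = 0.016). COX5B, which binds zinc, changed by -0.17 ± 0.05 (SE, adjusted p = 0.0233) and -0.10 ± 0.04 (SE, adjusted p = 0.0942), and the second value passed with the block (adjusted p = 0.0287). The call for COX5B with NT siRNA was lost without replicate 1 of NT siRNA, DMSO, or replicate 2 or 3 of NT siRNA, lapatinib (adjusted p between 0.0541 and 0.0961). COX5A fell by 0.20 ± 0.06 (SE, adjusted p = 0.0162) with NT siRNA and gave -0.10 ± 0.04 (SE, adjusted p = 0.0732) with FOXA1 siRNA, where the adjusted p with the block was 0.0228. The call for COX5A with NT siRNA was lost without replicate 1 of NT siRNA, DMSO (adjusted p = 0.0702). NDUFA4 was long counted as a complex I subunit, is found in complex IV and is named COXFA4 in RefSeq. By its symbol it stays with complex I in the sums, medians and counts given here. It gave -0.12 ± 0.07 (SE, adjusted p = 0.166) and -0.09 ± 0.04 (SE, adjusted p = 0.105), and with the block its adjusted p was 0.0386 and 0.0185.

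The lapatinib comparisons share no libraries, and the members' values in them lay close together. Pearson's r of the log2 fold changes over the 77 genes was 0.93 and Spearman's rho 0.90, as a description, since the genes of a library are not independent. In both comparisons 45 members fell and 3 rose, the last being ATP5G2, NDUFB5 and SDHA. No member was called in opposite directions, 58 fell in at least 1 of them and 16 passed in neither. By replicate number, lapatinib lowered 67, 70 and 65 of the 77 members from the DMSO sample of the same number with NT siRNA, and 68, 68 and 66 with FOXA1 siRNA. The joint counts used the calls without the block. Neither these joint counts nor the correlations were made over all genes tested. Whether the likeness is particular to the members was therefore not tested.

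**Figure D4:**
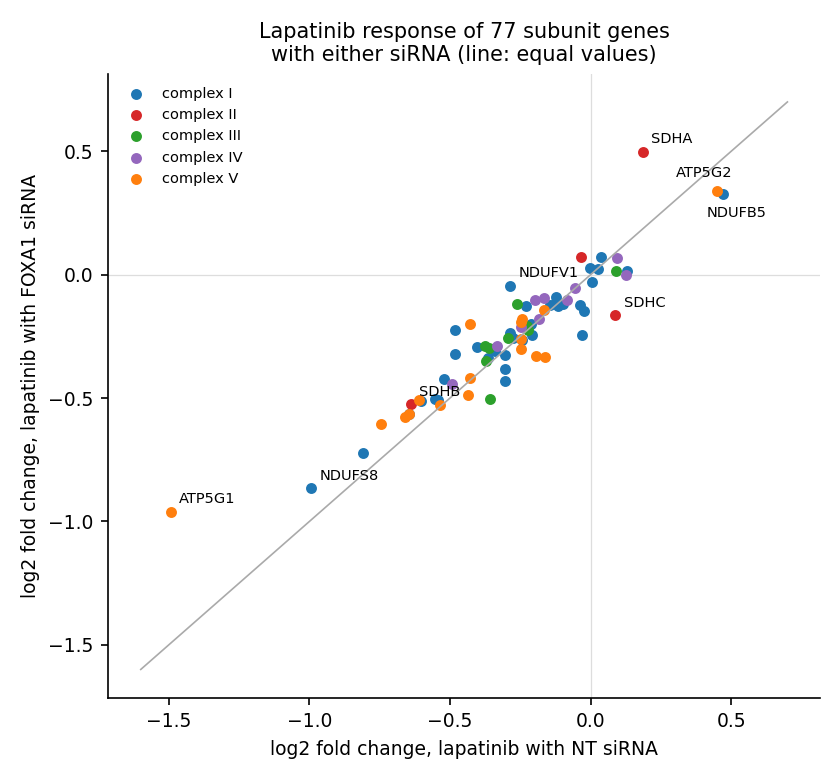
Log2 fold change with lapatinib in cells with NT siRNA (x axis) and with FOXA1 siRNA (y axis) for the 77 subunit genes, coloured by complex. The grey diagonal marks equal values. Most points lie near the diagonal in the lower left, while ATP5G1 (-1.49 and -0.96) and SDHA (0.19 and 0.50) lie above it.

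Whether the lapatinib response itself differed with the siRNA was tested as an interaction over all 12 samples. By edgeR, 2 members had a higher lapatinib response with FOXA1 siRNA and 0 a lower one, while 3.99% and 3.20% of 14012 genes passed in those directions. At an unadjusted p under 0.05 the counts were 6 and 1, against 12.4% and 9.85% of all genes, and DESeq2 called 4 and 0, against 6.94% and 5.32% of the genes it tested. The 2 genes called by edgeR were NDUFV1, with an interaction of 0.26 ± 0.05 (SE, adjusted p = 0.00856), and SDHA, with 0.32 ± 0.08 (SE, adjusted p = 0.0313). NDUFV1 had normalized counts of 8284, 8191 and 8323 with NT siRNA and DMSO, 6554, 6606 and 6868 with NT siRNA and lapatinib, 9091, 9231 and 9061 with FOXA1 siRNA and DMSO, and 8721, 8953 and 8737 with FOXA1 siRNA and lapatinib, so lapatinib samples lay well below DMSO samples with NT siRNA and only slightly below with FOXA1 siRNA. Of the 77 interaction values 54 were positive and 23 negative, while 6850 of 14012 were negative over all genes tested. The median of the members was 0.04 against 0.01 over all genes tested. Without replicate 2 of NT siRNA, lapatinib, that median was -0.01.

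Under the replicate block the interaction counts were 8 higher and 1 lower, while 11.1% and 9.22% of all genes passed in those directions. The additional genes were NDUFS7 (0.27, adjusted p = 0.0543 without and 0.00404 with the block), ATP5G1 (0.55, 0.0639 and 0.00167), ATP5B (0.24, 0.204 and 0.00159), ATP5G3 (0.15, 0.375 and 0.0244), NDUFB10 (0.17, 0.236 and 0.0379), UQCRC1 (0.16, 0.193 and 0.0293) and, lower, SDHC (-0.24, 0.159 and 0.00945). The call for SDHA in the interaction was lost without replicate 1 or 3 of NT siRNA, DMSO, replicate 1 or 2 of NT siRNA, lapatinib, replicate 2 or 3 of FOXA1 siRNA, DMSO, or replicate 1 or 3 of FOXA1 siRNA, lapatinib (adjusted p between 0.0548 and 0.0819). Leaving out 1 sample at a time, the count of higher members ran from 1 to 4, the 4 being without replicate 2 of NT siRNA, DMSO, and the lower count was 1 without replicate 2 of NT siRNA, lapatinib.

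With FOXA1 siRNA most members did not pass, and those that did were mostly higher. In DMSO 19 of the 77 were higher and 4 lower, while 21.9% of 13694 genes tested were higher and 21.3% lower. In lapatinib 19 were higher and 6 lower, while 22.7% of 13727 genes were higher and 22.2% lower. Higher members were thus near the share over all genes (24.7% each time) and lower members were below it (5.2% and 7.8%). The member medians were 0.05 in each comparison, against -0.01 over all genes tested. Leaving out 1 sample, the median ran from 0.025 to 0.067 in DMSO, lowest without replicate 2 of NT siRNA, DMSO, and from 0.001 to 0.088 in lapatinib, lowest without replicate 2 of NT siRNA, lapatinib. In these comparisons an unlabelled pair of log2 fold changes is for DMSO first and lapatinib second. They use the same libraries as the lapatinib comparisons above and are not independent of them.

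With the replicate number as a block, 9 members rather than 4 were lower in DMSO and 33 rather than 19 were higher in lapatinib. Over all genes the block called 30.3% higher and 30.2% lower in DMSO, and 30.6% higher and 31.1% lower in lapatinib. For complex I in lapatinib the higher count was 15 rather than 8, and for complex V 9 rather than 5. In DMSO the complex I count of lower members was 6 rather than 3, and complex IV had 4 higher rather than 1. Without replicate 1 or 3 of FOXA1 siRNA, DMSO, the higher count in DMSO was 10 and 9, and without replicate 2 of NT siRNA, DMSO, the lower count was 7. Without replicate 1 or 3 of FOXA1 siRNA, lapatinib, the higher count in lapatinib was 11 and 12.

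NDUFC1 fell far more than any other member with FOXA1 siRNA. This gene (chromosome 4, 139289917 to 139302551) encodes a small accessory subunit of the membrane arm of complex I, and had normalized counts of 1986, 1797 and 1966 with NT siRNA and DMSO, 1513, 1369 and 1514 with NT siRNA and lapatinib, 795, 673 and 729 with FOXA1 siRNA and DMSO, and 556, 572 and 603 with FOXA1 siRNA and lapatinib. Each library with FOXA1 siRNA lay below each library with NT siRNA, whichever drug it had received. Its log2 fold change with FOXA1 siRNA was -1.38 ± 0.07 (SE, adjusted p = 1.19e-05) in DMSO and -1.35 ± 0.07 (SE, adjusted p = 7.62e-06) in lapatinib. Lapatinib lowered it further, by 0.37 ± 0.07 (SE, adjusted p = 0.00161) with NT siRNA and 0.34 ± 0.08 (SE, adjusted p = 0.00719) with FOXA1 siRNA. With a single siRNA pool against FOXA1, an effect through FOXA1 and one of the pool on other mRNAs cannot be told apart.

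SDHC (chromosome 1, 161314381 to 161363206), the larger membrane anchor of complex II, was the second lowest. It had normalized counts of 5685, 5309.8 and 5589 with NT siRNA and DMSO, 6069, 5178 and 6106 with NT siRNA and lapatinib, 4011, 3916 and 4194 with FOXA1 siRNA and DMSO, and 3647, 3343 and 3778 with FOXA1 siRNA and lapatinib, and the ranges with NT and FOXA1 siRNA did not overlap. The log2 fold change was -0.44 ± 0.04 (SE, adjusted p = 0.000189) in DMSO and -0.70 ± 0.08 (SE, adjusted p = 0.000235) in lapatinib. Its partners moved the other way: SDHA was higher by 0.25 ± 0.04 (SE, adjusted p = 0.00158) and 0.55 ± 0.07 (SE, adjusted p = 0.000311), and SDHD by 0.18 ± 0.06 (SE, adjusted p = 0.0441) and 0.28 ± 0.06 (SE, adjusted p = 0.00777). The call for SDHD in DMSO was lost without replicate 1, 2 or 3 of NT siRNA, DMSO, or replicate 1 or 3 of FOXA1 siRNA, DMSO (adjusted p between 0.0517 and 0.154). Nor did SDHD pass in DMSO in the model of all 12 samples or with no filter on low counts. SDHB gave 0.02 ± 0.04 (SE, adjusted p = 0.712) and 0.13 ± 0.05 (SE, adjusted p = 0.0728), and the second value passed with the block (adjusted p = 0.0164). NDUFV2 fell too, by 0.26 ± 0.06 (SE, adjusted p = 0.00791) and 0.35 ± 0.06 (SE, adjusted p = 0.00214).

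**Figure D5:**
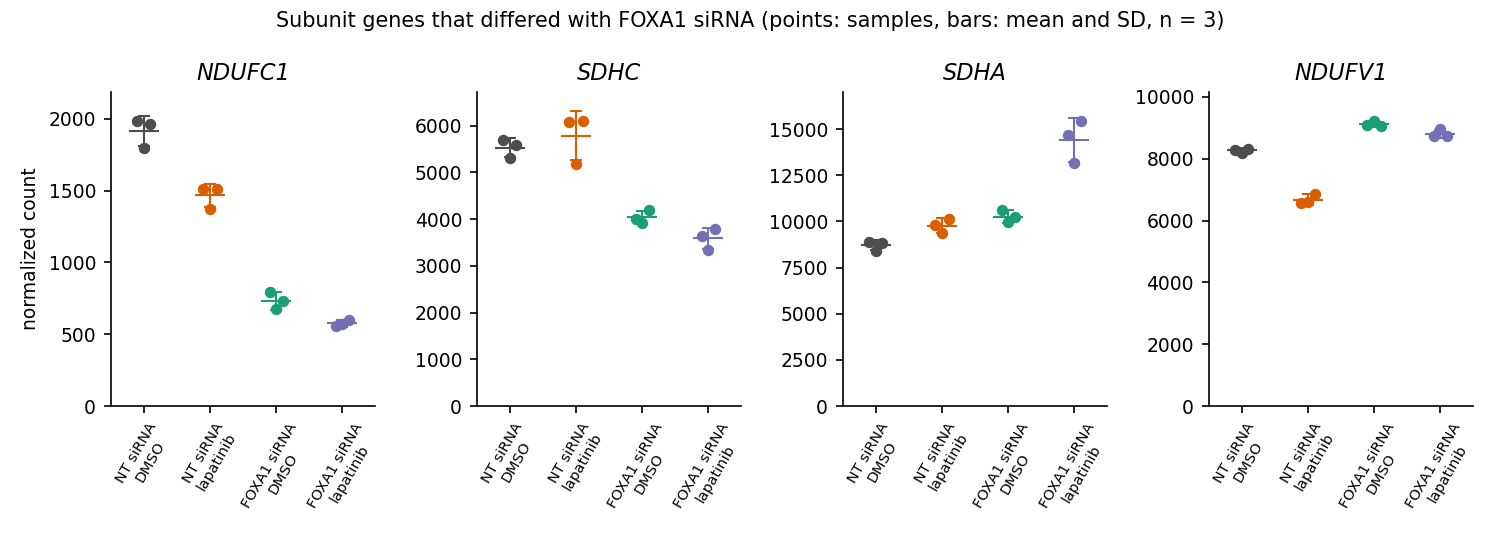
Normalized counts (y axes, from 0) of NDUFC1, SDHC, SDHA and NDUFV1 in the 4 groups (x axis). Points are samples and marks with bars are the mean and SD of 3 replicates. NDUFC1 and SDHC are lower in every FOXA1 siRNA sample than in every NT siRNA sample, SDHA peaks with both treatments, and NDUFV1 drops with lapatinib mainly in NT siRNA cells.

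The members that rose most with FOXA1 siRNA in DMSO belonged to complex I. NDUFB3, a membrane-arm accessory subunit, had normalized counts of 791, 665 and 749 with NT siRNA and DMSO, 650.2, 571 and 656 with NT siRNA and lapatinib, 1030.0, 902 and 1052 with FOXA1 siRNA and DMSO, and 854, 755 and 894 with FOXA1 siRNA and lapatinib. It was higher by 0.45 ± 0.09 (SE, adjusted p = 0.00397) in DMSO and 0.41 ± 0.09 (SE, adjusted p = 0.00692) in lapatinib. NDUFC2, which sits beside NDUFC1 in the complex, had normalized counts of 5015, 4896 and 5149.8 with NT siRNA and DMSO, 5146, 4804 and 5287 with NT siRNA and lapatinib, 6620.4, 6269 and 6734 with FOXA1 siRNA and DMSO, and 6782, 6523 and 7207 with FOXA1 siRNA and lapatinib. It was higher by 0.39 ± 0.04 (SE, adjusted p = 0.000243) and 0.42 ± 0.06 (SE, adjusted p = 0.00063). NDUFA5 was higher by 0.31 ± 0.04 (SE, adjusted p = 0.000709) and 0.34 ± 0.06 (SE, adjusted p = 0.00181). For these genes every FOXA1 siRNA sample exceeded every NT siRNA sample of the same drug. NDUFV1 was higher by 0.16 ± 0.03 (SE, adjusted p = 0.00702) and 0.39 ± 0.04 (SE, adjusted p = 0.000172), and NDUFB5 by 0.29 ± 0.05 (SE, adjusted p = 0.00231) in DMSO.

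In lapatinib the largest rise with FOXA1 siRNA was that of ATP5G1, 0.65 ± 0.13 (SE, adjusted p = 0.00387), whose value in DMSO was 0.13 ± 0.08 (SE, adjusted p = 0.253) and passed there with the block (adjusted p = 0.0447). ATP5G3 was higher by 0.19 ± 0.05 (SE, adjusted p = 0.0178) and 0.32 ± 0.07 (SE, adjusted p = 0.00829), and ATP5G2 by 0.27 ± 0.07 (SE, adjusted p = 0.0189) and 0.15 ± 0.05 (SE, adjusted p = 0.0316). The call for ATP5G3 in DMSO was lost without replicate 1 or 3 of FOXA1 siRNA, DMSO (adjusted p between 0.0692 and 0.0704). The call for ATP5G2 in DMSO was lost without replicate 3 of NT siRNA, DMSO, or replicate 1 or 3 of FOXA1 siRNA, DMSO (adjusted p between 0.0608 and 0.0735). The call for ATP5G2 in lapatinib was lost without replicate 1 or 3 of NT siRNA, lapatinib, or replicate 1, 2 or 3 of FOXA1 siRNA, lapatinib (adjusted p between 0.0501 and 0.107). In a model of all 12 samples neither ATP5G3 in DMSO nor ATP5G2 in lapatinib passed. ATP5B gave 0.08 ± 0.05 (SE, adjusted p = 0.266) and 0.30 ± 0.08 (SE, adjusted p = 0.0172), with an adjusted p of 0.0148 in DMSO with the block. The call for ATP5B in lapatinib was lost without replicate 1 or 3 of FOXA1 siRNA, lapatinib (adjusted p between 0.056 and 0.0655). UQCRFS1 was higher by 0.20 ± 0.04 (SE, adjusted p = 0.00338) and 0.22 ± 0.05 (SE, adjusted p = 0.0122). The call for UQCRFS1 in lapatinib was lost without replicate 1 of FOXA1 siRNA, lapatinib (adjusted p = 0.0525). NDUFS8 in lapatinib was higher by 0.25 ± 0.08 (SE, adjusted p = 0.0377). The call for NDUFS8 in lapatinib was lost without replicate 1 or 2 of NT siRNA, lapatinib, or replicate 1 or 3 of FOXA1 siRNA, lapatinib (adjusted p between 0.0722 and 0.12).

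Other genes of respiration were grouped in lists by function, to be read beside the shares over all genes tested. With lapatinib 29.2% fell and 30.5% rose with NT siRNA, and 29.1% fell and 29.0% rose with FOXA1 siRNA. FOXA1 siRNA in DMSO gave 21.9% higher and 21.3% lower, or 30.3% and 30.2% with the block. In lapatinib it gave 22.7% and 22.2%, or 30.6% and 31.1% with the block. Of 8 electron transport and ATP synthase proteins outside the symbols above, 6 fell and 1 rose with lapatinib and NT siRNA, and the same counts held with lapatinib and FOXA1 siRNA. CYCS, cytochrome c, had normalized counts of 19569.8, 16572 and 19379 with NT siRNA and DMSO, 8232, 6644 and 7799 with NT siRNA and lapatinib, 20026, 18075 and 19865 with FOXA1 siRNA and DMSO, and 10988, 9595 and 10578 with FOXA1 siRNA and lapatinib. Every lapatinib sample was well under every DMSO sample. It fell by 1.27 ± 0.09 (SE, adjusted p = 1.33e-05) and 0.89 ± 0.06 (SE, adjusted p = 1.39e-05). NDUFAB1, the acyl carrier protein of complex I, fell by 0.71 ± 0.10 (SE, adjusted p = 0.000489) with NT siRNA. COX7A2L, a supercomplex factor, rose by 0.17 ± 0.06 (SE, adjusted p = 0.0292) with NT siRNA, and did not pass there with DESeq2, with RLE scaling or with no filter on low counts. The call for COX7A2L with NT siRNA was lost without replicate 2 or 3 of NT siRNA, DMSO, or replicate 1 or 3 of NT siRNA, lapatinib (adjusted p between 0.0721 and 0.129). With FOXA1 siRNA in DMSO the lower pair of that list was USMG5 (-0.91, adjusted p = 4.29e-05) and COX7A2L (-0.15, adjusted p = 0.0467), and with the block 2 were higher and 3 lower. COX7A2L did not pass in DMSO with DESeq2. The call for COX7A2L in DMSO was lost without replicate 1 or 3 of NT siRNA, DMSO, or replicate 1, 2 or 3 of FOXA1 siRNA, DMSO (adjusted p between 0.0718 and 0.163).

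Of 13 complex I assembly factors, 8 fell and 1 rose with lapatinib and NT siRNA. NDUFAF5 (C20orf7 in the files) fell by 1.06 ± 0.15 (SE, adjusted p = 0.000407), FOXRED1 fell by 0.91 ± 0.07 (SE, adjusted p = 1.91e-05), and TIMMDC1 (C3orf1) rose by 0.33 ± 0.08 (SE, adjusted p = 0.00747). Of 33 assembly factors of complexes II to V, 17 fell and 4 rose. With FOXA1 siRNA the counts with lapatinib were 8 and 2 for complex I and 13 and 2 for complexes II to V. With NT siRNA, BCS1L, which inserts UQCRFS1 into complex III, fell with lapatinib by 0.94 ± 0.08 (SE, adjusted p = 3.11e-05), COX17, a copper chaperone, fell by 0.71 ± 0.13 (SE, adjusted p = 0.00191), SDHAF4 (C6orf57) rose by 1.14 ± 0.30 (SE, adjusted p = 0.0109) and COX19 rose by 0.40 ± 0.07 (SE, adjusted p = 0.00154). With FOXA1 siRNA in DMSO these assembly lists had 3 higher and 1 lower, and 11 higher and 4 lower, and for complex I the higher count with the block was 6. TTC19, which acts on complex III, was higher by 1.08 ± 0.06 (SE, adjusted p = 1.76e-05), SCO1, another copper chaperone, by 0.87 ± 0.08 (SE, adjusted p = 0.000101) and NUBPL, which delivers iron-sulfur clusters to complex I, by 0.41 ± 0.06 (SE, adjusted p = 0.00109), while SDHAF2, which helps attach flavin to SDHA, fell by 0.68 ± 0.08 (SE, adjusted p = 0.000328).

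Of 16 genes of the TCA cycle and pyruvate dehydrogenase, 12 fell and 1 rose with lapatinib and NT siRNA. DLAT, a subunit of pyruvate dehydrogenase, fell by 0.85 ± 0.09 (SE, adjusted p = 6.3e-05) and FH, fumarase, by 0.69 ± 0.08 (SE, adjusted p = 9.82e-05), whereas SUCLG2, a succinyl-CoA ligase subunit, rose by 0.36 ± 0.10 (SE, adjusted p = 0.0114). With FOXA1 siRNA the counts with lapatinib were 11 and 2. FOXA1 siRNA itself raised 6 of the 16 in DMSO and 8 in lapatinib, where the block gave 12. In DMSO SUCLG2 was higher by 0.95 ± 0.09 (SE, adjusted p = 0.000152) and IDH3A by 0.32 ± 0.05 (SE, adjusted p = 0.00117). Of 77 mitochondrial ribosomal protein genes, 58 fell and 4 rose with lapatinib and NT siRNA, with a median of -0.35, and 57 fell and 3 rose with FOXA1 siRNA, with a median of -0.30. With NT siRNA MRPL18 and MRPL12 fell most, by 0.88 ± 0.11 (SE, adjusted p = 0.000215) and 0.85 ± 0.07 (SE, adjusted p = 2.84e-05), and MRPS18B and MRPL45 rose most, by 0.47 ± 0.05 (SE, adjusted p = 5.31e-05) and 0.47 ± 0.08 (SE, adjusted p = 0.00146). With FOXA1 siRNA in DMSO 14 were higher and 13 lower, with MRPL41 at -2.21 ± 0.06 (SE, adjusted p = 1.93e-06) and MRPL18 at -2.02 ± 0.10 (SE, adjusted p = 9.12e-06), and with the block the counts were 24 and 22. Without the block both counts were below the shares over all genes, 21.9% higher and 21.3% lower. With the block they were near those shares, 30.3% and 30.2%.

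Among 11 tested regulators of respiratory genes, 6 fell and 3 rose with lapatinib and NT siRNA, and 4 fell and 3 rose with FOXA1 siRNA. With lapatinib and NT siRNA, PPRC1 and PPARGC1B, coactivators of the PGC-1 family, fell by 0.80 ± 0.08 (SE, adjusted p = 6.3e-05) and 0.62 ± 0.10 (SE, adjusted p = 0.000747), while GABPA, the ETS subunit of the nuclear respiratory factor GABP, rose by 0.33 ± 0.06 (SE, adjusted p = 0.00136) and YY1 by 0.28 ± 0.06 (SE, adjusted p = 0.00332). With FOXA1 siRNA in DMSO 2 were higher and 3 lower, and 4 were higher with the block. TFAM, the packaging and transcription factor of mitochondrial DNA, fell by 0.62 ± 0.05 (SE, adjusted p = 8.22e-05) and GABPA by 0.55 ± 0.07 (SE, adjusted p = 0.000395), and TFB1M and TFB2M were higher by 0.31 ± 0.08 (SE, adjusted p = 0.0177) and 0.25 ± 0.06 (SE, adjusted p = 0.0138). The call for TFB1M in DMSO was lost without replicate 1 or 3 of NT siRNA, DMSO, or replicate 2 or 3 of FOXA1 siRNA, DMSO (adjusted p between 0.0503 and 0.0703). TFB1M also did not pass in the model of all 12 samples. The call for TFB2M in DMSO was lost without replicate 1 of NT siRNA, DMSO, or replicate 3 of FOXA1 siRNA, DMSO (adjusted p between 0.0545 and 0.0549). Of 6 tissue-restricted subunit isoforms 1 was tested, and it passed in none of the comparisons.

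Most subunit mRNAs are short, and genes with short transcripts fell with lapatinib more often than the genes tested as a whole. Of the 77 members 48 had a mean length under 1000 bases. Of 999 genes of that length tested with lapatinib and NT siRNA, these 48 members included, 369 fell and 191 rose. Of all genes tested 29.2% fell and 30.5% rose. The median of the short genes was -0.16 against 0.03 over all genes. With FOXA1 siRNA in DMSO 184 of 1001 were lower and 126 higher, with a median of -0.04. Both counts were below the shares over all genes there, 21.3% lower and 21.9% higher. Over the 77 members Spearman's rho between length and log2 fold change was 0.18 with lapatinib and NT siRNA, 0.25 with lapatinib and FOXA1 siRNA and 0.28 with FOXA1 siRNA in DMSO, as a description. The part of length in these results was not tested.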

How the data were processed

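RNAseq of polyadenylated RNA was analysed for 12 SKBR-3 samples in 4 groups of 3, named by the labels. The labels give both a KAPA stranded kit and an Illumina TruSeq kit. The methods state alignment to hg38 and quantification with Salmon, while the deposited tables have RSEM columns with UCSC transcript identifiers, and the submitters' processing notes name RSEM and DESeq2 1.12.3 under R 3.2.2. Expected counts (87.5% to 88.1% of them whole numbers), estimated by the authors per gene and not normalized, were rounded and used for all tests. TPM values, computed by the authors from the same estimates, served for levels between genes and for sums and shares compared between groups, and for no test. Their totals over the listed genes were lower in each lapatinib sample than in each DMSO sample. They ran from 896833 (NT siRNA, lapatinib replicate 3) to 914469 (FOXA1 siRNA, lapatinib replicate 2) with lapatinib. With DMSO they ran from 922405 (FOXA1 siRNA, DMSO replicate 3) to 939340 (NT siRNA, DMSO replicate 2). The sums were not corrected for this, so their changes with lapatinib include it. The deposited FPKM and normalized columns were not used.

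Genes reaching 10 counts in 1 or more samples of a comparison were tested with edgeR 4.0.16 (R 4.3.3), by its quasi-likelihood test after TMM scaling, on the 6 samples of the comparison, or on all 12 for the interaction, with Benjamini-Hochberg adjustment over all genes tested. Normalized counts are TMM-scaled to the mean depth. Alternatives were RLE and upper-quartile scaling, DESeq2 1.42.0, other count filters, 1 model of all samples, stricter thresholds, leaving out each sample, and the replicate number as a block. With each group's mean removed, libraries sharing a replicate number correlated across groups (0.241 to 0.624 in 18 pairs, mean 0.39, over 12170 genes). Pairs with different numbers reached 0.196 at most, close to the lowest of these values. Their mean of -0.184 is not separate evidence, because values centred within a group cancel and push it negative. The numbers were taken to pair the samples. The block is given where it changed the call of a named member, and for some of the counts. On simulated data, 99% of genes changed by 0.5 on the log2 scale were recovered for lapatinib with NT siRNA and 68% for the interaction, with 13475 and 13734 genes fitted, respectively. The simulation gave every gene the same dispersion and had no replicate effect. It changed only well-counted genes, and far fewer of them than passed in the data. Changes smaller than 0.5, such as the member medians, were not simulated, so these rates do not apply to them.

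Named members were fixed core subunits, c-subunit genes and paralog pairs, up to 3 members per direction and comparison with the largest change among those passing, and the most and least abundant member of each complex. From the lists, up to 2 genes per direction were named. SDHD, ATP5D, ATP5E, NDUFS7, NDUFB10 and the SDHA copies were named after their values were seen. The members and lists were chosen with earlier results of these data known. Gene positions and promoters come from RefSeq on GRCh38.p14.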

Additional observations from a re-analysis of the deposited data

Results flagged for a closer look

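The lapatinib response of 2 subunit genes differed between the siRNA backgrounds by the interaction test of edgeR over all 12 samples. NDUFV1 had an interaction of 0.26 on the log2 scale (adjusted p = 0.00856) and SDHA one of 0.32 (adjusted p = 0.0313), against 3.99% of all genes tested in that direction. The SDHA call was lost on leaving out any one of 8 of the 12 samples (adjusted p between 0.0548 and 0.0819). For SDHD, whose interaction was 0.12 and did not pass (adjusted p = 0.509), all 3 lapatinib samples were below the DMSO sample of the same number with NT siRNA and all 3 were above it with FOXA1 siRNA, by as little as 0.001 on the log2 scale. No further test of that opposite movement was made.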

How the results depend on the processing

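No scaling moved the median of all genes tested by more than 0.1 on the log2 scale. A log2 fold change of at least 1 left 0 members higher and 1 lower with lapatinib and NT siRNA, 0 and 0 with lapatinib and FOXA1 siRNA, 0 and 1 with FOXA1 siRNA in DMSO, 0 and 1 in lapatinib, and 0 higher for the interaction. An adjusted p under 0.01 left 9 members higher with FOXA1 siRNA in DMSO, 9 in lapatinib and 1 for the interaction, and without SDHA, an alternative added after seeing the data, the interaction count was 1 as well. DESeq2 called 4 members higher for the interaction. With the replicate block 9 members were lower with FOXA1 siRNA in DMSO, 33 were higher in lapatinib, and the interaction counts were 8 and 1. Beside these and the values given with their results, the block changed no call made without it among the named members. Leaving out each sample in turn gave 3 to 6 members higher and 40 to 55 lower with lapatinib and NT siRNA, 3 higher each time and 40 to 60 lower with lapatinib and FOXA1 siRNA, 9 to 18 higher and 3 to 7 lower with FOXA1 siRNA in DMSO, 11 to 21 higher and 4 to 7 lower in lapatinib, and 1 to 4 higher and 0 to 1 lower for the interaction. Member medians kept their sign except for the interaction, which ran from -0.01 to 0.08. The cause of these moves was not tested. Shares over all genes were not computed at the stricter thresholds or in the fits leaving out a sample. Whether the members differ from all genes in those settings was therefore not tested. Depth limited ATP5L2 most, with 12 to 38 counts per sample.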
